A study of Rattus norvegicus with 15 samples.

Results

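H9c2 cells kept for 14 days with retinoic acid (T14+RA) were compared with H9c2 cells at the start of the same time course (T0) across all 11574 genes of the count table. The members were the 6 libraries labelled day 0 or day 14 with RA, 3 in each group, out of 15 libraries in the series. H9c2 is a line of myoblasts that was derived from embryonic rat heart and that can fuse into multinucleated myotubes. Messenger RNA was sequenced from whole cultures, and the value of a gene was the number of reads assigned to it. T0 cultures were collected 24 h after seeding in medium with 10% serum. T14+RA cultures spent the same 24 h in 10% serum, were then moved to 1% serum and received 1 µM all-trans retinoic acid every day until day 14. A pair of other groups of 3 libraries each was used to place the result: T14-RA, kept for the same 14 days in 1% serum without RA, and T7+RA, kept for 7 days with RA. RA was added in DMSO, and the sources used here do not say whether the cultures without RA received DMSO. Time in culture, the fall in serum and RA all differ between T14+RA and T0 and cannot be told apart in that comparison. Cell density at collection is not given and may differ as well. T14+RA and T14-RA, in contrast, differ by the addition of RA in DMSO. The labels give the tissue as heart and the cells as myoblasts of a single line, and the study's methods call the replicates of a group biological replicates. A label field for the cell line carries a number that counts up from library to library where the titles give H9c2 throughout.

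Myoblasts that leave the cell cycle fuse and build sarcomeres, the contractile units in which thick filaments of myosin slide along thin filaments of actin, tropomyosin and troponin that are anchored at the Z-disc. Developing skeletal muscle uses several contractile proteins that adult animals keep mainly in the heart, such as Tnnt2, Actc1 and Myl4. Retinoic acid acts through nuclear receptors, the RARs paired with RXRs, which bind DNA and switch target genes. Some of the best known targets encode enzymes that remove retinoic acid or its precursors, among them the Cyp26 hydroxylases and the retinaldehyde reductase Dhrs3.

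Total counts per library ran from 508397 to 768431 at T0 and from 544558 to 1030820 in T14+RA, with a median of 22 counts per gene and library. The 10 genes with the most counts took 8.92 to 10.5% of the counts at T0 and 5.66 to 6.28% in T14+RA. T0 replicate 2 stood apart from T0 replicates 1 and 3 along gene length. In the 2894 genes with the shortest transcripts (49 to 1483 bases), the median deviation from the mean of all libraries on the log2 scale was 0.0874 in T0 replicate 2 against -0.173 and -0.264 in T0 replicates 1 and 3, and 0.112, 0.235 and 0.0335 in the T14+RA libraries. Replicate 2 was likewise the highest library of its group for T14+RA, as it was for T14-RA (0.0948) and T7-RA (0.0775), but the lowest for T7+RA (-0.0213). Among the longest transcripts (3537 to 25658 bases), T14+RA replicate 2 was at -0.161 against -0.048 and 0.0167 in replicates 1 and 3. Results that moved when T0 replicate 2 was left out are given beside their values. Leaving out that library alone does not remove the shift of T14+RA replicate 2. Among genes that mark cell types, the heart muscle markers Actc1 and Pln were the only 2 of 9 listed that were measured (Myh6, Nppa, Nppb, Tnni3, Myl7, Myl2 and Ryr2 were not among the measured genes), and their summed level was 2.10 to 5.52 CPM at T0, 39.6 to 66.0 CPM in T14+RA and 251.5 to 279 CPM in T14-RA. The 6 measured skeletal muscle markers summed to 838 to 867 CPM at T0, 2662 to 3067 CPM in T14+RA and 6194 to 6423 CPM in T14-RA, with 4 raised and 2 lowered in T14+RA. The 6 measured smooth muscle markers summed to 16640 to 18401 CPM at T0 and 4271 to 5046 CPM in T14+RA, with 0 raised and 5 lowered. The 5 measured fibroblast markers summed to 26017 to 38765 CPM at T0 and 18462 to 23495 CPM in T14+RA, with 1 raised and 2 lowered. The 3 neuron and glia markers summed to 30.0 to 46.1 CPM at T0 and 28.3 to 32.8 CPM in T14+RA, with 0 raised and 1 lowered. The epithelial marker Krt8 stood at 31.9 to 41.9 and 25.1 to 37.7 CPM, the endothelial marker Tek at 0 to 6.29 CPM over both groups, and no adipocyte marker was measured. Cd14, the only measured gene of the 6 leukocyte markers listed, stood at 13.8, 22.5 and 10.5 CPM at T0 and 37.6, 58.1 and 48.9 CPM in T14+RA, a rise that passed the test (1.58 ± 0.32, adjusted p = 3.91e-05). Itgax, an integrin subunit of leukocytes that was in no marker list, stood at 2.76, 3.75 and 4.19 CPM at T0, 16.8, 1.77 and 8.47 CPM in T14-RA and 157, 156 and 179 CPM in T14+RA and passed the test against both groups, and the mast cell protease genes Mcpt1 and Mcpt8l2 were also higher in T14+RA than in either group. The part of other cell types in the results was not tested.

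Between T0 and T14+RA, 2284 of 11574 genes (19.7%) differed, of which 1138 (9.83%) were higher and 1146 (9.9%) were lower in T14+RA. A gene was called when its adjusted p in edgeR's quasi-likelihood test, fitted to all 15 libraries and corrected by Benjamini-Hochberg over all genes, was below 0.001. All groups thus shared the estimate of a gene's spread. Pairs of replicates differed more at T0 (chi-square per gene 2.057 to 3.085) than in T7-RA, T14-RA and T7+RA (1.073 to 1.533), with T14+RA at 1.444 to 2.036. With only T0 and T14+RA in the fit, 1711 genes were called, 846 raised and 865 lowered. The median size of a called change was 1.27 on the log2 scale, and 1581 called genes changed by more than 2-fold, 818 upward and 763 downward. Changes of more than 8-fold were found in 160 raised and 45 lowered genes. Among the raised genes, 46 had no count in any T0 library, whereas 2 lowered genes had no count in any T14+RA library. The table holds only genes with more than 20 counts over all libraries, most of which come from day 7 or 14. A gene silent at T0 could pass through those libraries, so the 46 and the 2 are not an even comparison. Values of single genes below are CPM, which are counts scaled to a common library total after TMM normalisation, in the order of replicates 1 to 3 (n = 3 per group), and changes are log2 fold changes ± SE. The CPM ranges of the groups did not overlap for 43.5% of all genes, and for 2270 of the 2284 called. Alternative fits changed 1 choice at a time, in the scaling, test, low-count filter, samples, depth, block, gene length trend or 1 library left out, or used an additive model, which holds the RA difference equal at days 7 and 14. Without T0 replicate 2, 2243 genes were called, 1126 raised and 1117 lowered. Without T14+RA replicate 2, 1984 genes were called, 1014 raised and 970 lowered. When changes were simulated in this comparison, edgeR called 74% of the genes given a log2 change of 2 and 33% of those given 1. The simulation used the spread shared by all groups. Smaller changes at low counts were thus often not detectable at this depth.

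**Figure D1:**
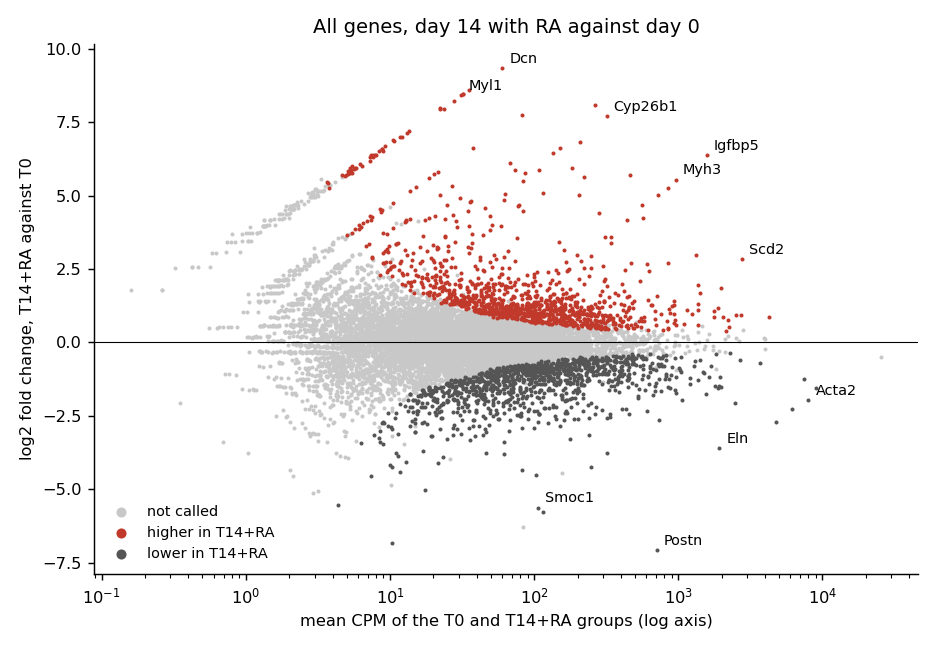
Log2 fold change of T14+RA against T0 (vertical axis) against the mean level of the gene in CPM (horizontal log axis), 1 point per gene. Of the 11574 genes, 1138 were called higher and 1146 lower in T14+RA, and genes with no count in a group lie on curved lines because their fitted fold change depends on the prior count.

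The genes with the largest rises from T0 included muscle, matrix and secreted proteins. Decorin (Dcn), a small proteoglycan of the matrix, was 0 in all 3 libraries at T0 and 96.5, 154 and 109 CPM in T14+RA, at least 67.1-fold higher. Triadin (Trdn), a protein of the calcium release complex, and Trim72, a factor of membrane repair in muscle, were likewise without a count at T0. Trdn reached 66.6, 66.0 and 59.8 CPM and Trim72 59.8, 51.9 and 81.6 CPM, at least 37.4-fold higher and at least 36.4-fold higher. Other genes of this group without a count at T0 were the MHC class I-like gene Mill1, the mast cell protease family member Mcpt8l2, kininogen (Kng1), the glutathione transferase gene Mgst1, the adhesion molecule gene Vcam1 and NEWGENE_1308171, with bounds from at least 13.3-fold to at least 40.8-fold higher. NEWGENE_1308171 was uneven over the T14+RA libraries, at 25.1, 3.14 and 41.7 CPM, and its call was lost in 2 of 25 alternative fits. Mcpt8l2 belongs to a family of near-identical genes, so its reads may come from relatives. Mamdc2, a secreted protein, was 0, 1.88 and 0 CPM at T0 and 144, 181 and 167 CPM in T14+RA. Myl1, Ckmt2 and Cyp26b1 also belonged to these 15 genes and are described with their groups.

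The genes with the largest falls were led by periostin (Postn; ENSRNOG00000012660, band 2q26), a matricellular protein of activated fibroblasts and developing valves. Postn stood at 1629, 1385 and 1201 CPM at T0 and at 7.72, 11.0 and 14.5 CPM in T14+RA (-7.06 ± 0.22, adjusted p = 3.43e-24). All T14+RA libraries were far below all T0 libraries, and the T14-RA libraries lay between them at 507, 685 and 496 CPM. Ccn5, another matricellular protein, fell from 211, 257 and 216 to 6.75, 0 and 3.63 CPM, and Smoc1, a SPARC-related matrix protein, fell from 200.02, 150.1 and 275 to 5.79, 1.57 and 3.63 CPM. The annexin gene Anxa8 had no count in T14+RA and was at least 15.0-fold lower than at T0, where it was 17.9, 20.6 and 23.1 CPM. The gap junction gene Gja5 was 39.1-fold lower, with a 95% counting interval of 10.4 to 330.2. Susd5, a membrane protein, fell from 487, 445 and 478 to 24.1, 22.00 and 29.0 CPM (-4.24 ± 0.17, adjusted p = 7.48e-32). The transcription factor gene Mycn and the phosphatase gene Ptprb were below 5 CPM in every T14+RA library after 55.2, 31.9 and 35.6 CPM and 30.3, 20.6 and 23.1 CPM at T0. Kprp, Depp1, Asb15, Plch1 and AABR07068316.1 also belonged to these genes, at no more than 2 CPM in any T14+RA library, and the call of Kprp, which was at 2.76, 15.0 and 8.38 CPM at T0, was lost in 14 of 24 alternative fits, among them those without T0 replicate 2 or 3 or any T14+RA library. The call of Depp1 was lost in 1 of 25. Col6a1 also belonged to these 15 genes and is described with the collagens.

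In absolute amount, the largest falls were in genes of the cytoskeleton and matrix. Smooth muscle actin (Acta2; ENSRNOG00000058039, band 1q52) went from 12716, 12990.5 and 12347 CPM to 3328, 3497 and 2993 CPM (-1.95 ± 0.09, adjusted p = 3.49e-28), and the cytoplasmic actin Actb from 10629, 10345 and 10571 to 4651, 4694 and 4001 CPM (-1.24 ± 0.08, adjusted p = 2.63e-20). Fibronectin (Fn1), filamin A (Flna), thrombospondin 1 (Thbs1), elastin (Eln), vimentin (Vim) and the giant scaffold protein Ahnak made up the rest, with changes of -1.54 ± 0.10, -2.26 ± 0.09, -2.70 ± 0.09, -3.60 ± 0.11, -2.06 ± 0.09 and -1.51 ± 0.21. The genes that gained most were the fatty acid desaturase Scd2, the binding protein Igfbp5, collagen III (Col3a1), the lysosomal protease Ctsd, the laminin receptor subunit Itga7, embryonic myosin (Myh3), the muscle ankyrin repeat protein Ankrd1 and the lysosomal membrane protein Laptm4a. Scd2 rose from 705, 717 and 612 to 4882, 4558 and 5087 CPM, and Igfbp5 from 53.8, 30.0 and 21.0 to 3013, 2722 and 3599 CPM. None of these 16 genes had overlapping ranges at T0 and in T14+RA. That follows largely from their choice among called genes, of which 2270 of 2284 did not overlap, against 43.5% of all genes.

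Genes of the sarcomere rose together. Of the 12 measured thick filament genes, 7 rose and 1 fell in T14+RA, with a list median of 4.78 (3.29 with genes absent at T0 set to their bound) against 0.0414 over all genes. Embryonic myosin heavy chain (Myh3; ENSRNOG00000046276, band 10q24) stood at 35.9, 30.0 and 56.6 CPM at T0 and at 1747, 1757 and 2119 CPM in T14+RA (5.54 ± 0.15, adjusted p = 5.02e-40). The groups were far apart, and every T14-RA library was higher still, at 4937, 5021 and 5209 CPM. Myh4, the fast adult myosin, was the gene that fell, from 452, 396 and 457 to 82.0, 92.7 and 119.6 CPM (-2.19 ± 0.15, adjusted p = 9.3e-18, lost in the additive model only of 27 alternative fits), while T14-RA remained at 491, 351 and 461 CPM. Myh3 and Myh4 lie in a family of near-identical genes, and reads could be split between its members, among them Myh8, which was 0 in all 3 libraries at T0 and 3.86, 3.14 and 5.44 CPM in T14+RA and did not pass the test (adjusted p = 0.014). The light chain Myl1 was 0 in all 3 libraries at T0 and 60.8, 67.6 and 58.0 CPM in T14+RA, at least 35.9-fold higher. The light chains Myl4 and Mylpf and the M-band and myosin-binding genes Mybph, Myom1 and Myom2 also rose, by 4.64 ± 0.32, 5.03 ± 0.15, 5.00 ± 0.21 and 1.88 ± 0.23 for the first 4, while Myom2, with few counts at T0, was 33.3-fold higher, with a 95% counting interval of 11.1 to 163.

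Of the 15 measured thin filament genes, 12 rose and 1 fell (median 3.10). Skeletal actin (Acta1; ENSRNOG00000017786, band 19q12) stood at 52.4, 41.3 and 31.4 CPM at T0 and 1453, 1748 and 1764 CPM in T14+RA (5.26 ± 0.15, adjusted p = 8.47e-39). Both the fast troponins Tnnt3 and Tnni2 and the slow troponin Tnni1 were below 22 CPM in every T0 library. In T14+RA Tnnt3 was 884, 913 and 948 CPM, Tnni2 132, 207 and 169 CPM and Tnni1 253, 281 and 263 CPM. Tnnt2, the troponin T of the heart and of embryonic skeletal muscle, rose from 63.5, 54.4 and 60.8 to 607, 680.5 and 598 CPM (3.39 ± 0.14, adjusted p = 6.38e-31), and its T14-RA values of 670.2, 822 and 769 CPM overlapped with those with RA. Cardiac actin (Actc1) rose from 4.14, 3.75 and 2.10 to 19.3, 47.1 and 32.6 CPM (3.10 ± 0.47, adjusted p = 1.42e-07), whereas T14-RA was at 239, 234 and 276 CPM. Nebulin (Neb), the ruler of the thin filament, and the tropomyosins Tpm1 and Tpm2 rose by 4.17 ± 0.47, 0.53 ± 0.09 and 0.62 ± 0.10. Tpm3, a tropomyosin of slow muscle and of non-muscle cells, was the gene that fell (-0.56 ± 0.11, adjusted p = 2e-05), and its call was lost in 3 of 27 alternative fits, which were those without T0 replicate 1, without T14+RA replicate 3 and with only the 2 groups compared.

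At the Z-disc, 13 of 17 genes rose and 2 fell (median 2.99, or 2.60 with bounds). The Z-disc protein Ldb3 rose from 40.00, 11.3 and 44.0 to 249.8, 261 and 355 CPM (3.14 ± 0.22, adjusted p = 1.38e-15). The ubiquitin ligases Trim63 and Fbxo32, which mark sarcomeric proteins for breakdown, rose by 3.81 ± 0.33 and 2.99 ± 0.32. The small heat shock protein Hspb7 went the other way, from 49.7, 31.9 and 37.7 to 8.68, 4.71 and 5.44 CPM (-2.57 ± 0.37, adjusted p = 2.83e-08), and Cryab was the other that fell (-0.58 ± 0.13, adjusted p = 0.000121), a call that was lost in 3 of 27 alternative fits, which were those without T0 replicate 2, without T14+RA replicate 1 and with only the 2 groups compared. Together, thick and thin filament genes took 0.4 to 0.492% of the counts at T0, 1.48 to 1.61% in T14+RA and 2.7 to 2.8% in T14-RA. In bulk RNA, fewer muscle cells and less RNA of these genes per cell cannot be told apart.

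Against T14-RA, many of these genes were lower with RA. The test of T14+RA against T14-RA called 557 genes (4.81%), 285 higher (2.46%) and 272 lower (2.35%) with RA. Of the thick filament genes 8 of 12 were lower and 0 higher, of the thin filament genes 7 of 15 were lower and 0 higher, and of the Z-disc genes 5 were lower and 1 higher. DESeq2 called 3 and limma-trend 2 of the Z-disc genes in either direction. Myh3 differed by -1.43 ± 0.10, adjusted p = 1.45e-19, Mylpf by -1.59 ± 0.10, adjusted p = 1.27e-20, Acta1 by -0.98 ± 0.10, adjusted p = 1.53e-12 and Actc1 by -2.998 ± 0.20, adjusted p = 3.67e-20. Mybpc1, a slow myosin-binding protein, was 49.2, 54.9 and 52.5 CPM in T14-RA and 0.965, 7.86 and 0 CPM in T14+RA (-4.17 ± 0.46, adjusted p = 6.09e-11), and its change from T0 with RA did not pass the test (adjusted p = 0.211). Not all members were lower with RA: Tnnc2 was 968, 1235 and 1032 CPM in T14+RA and 1049.8, 1050.3 and 969 CPM in T14-RA, ranges that overlapped, and Fbxo32 was the Z-disc gene that was higher with RA (1.22 ± 0.24, adjusted p = 0.000115), a call that was lost in 6 of 26 alternative fits.

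**Figure D2:**
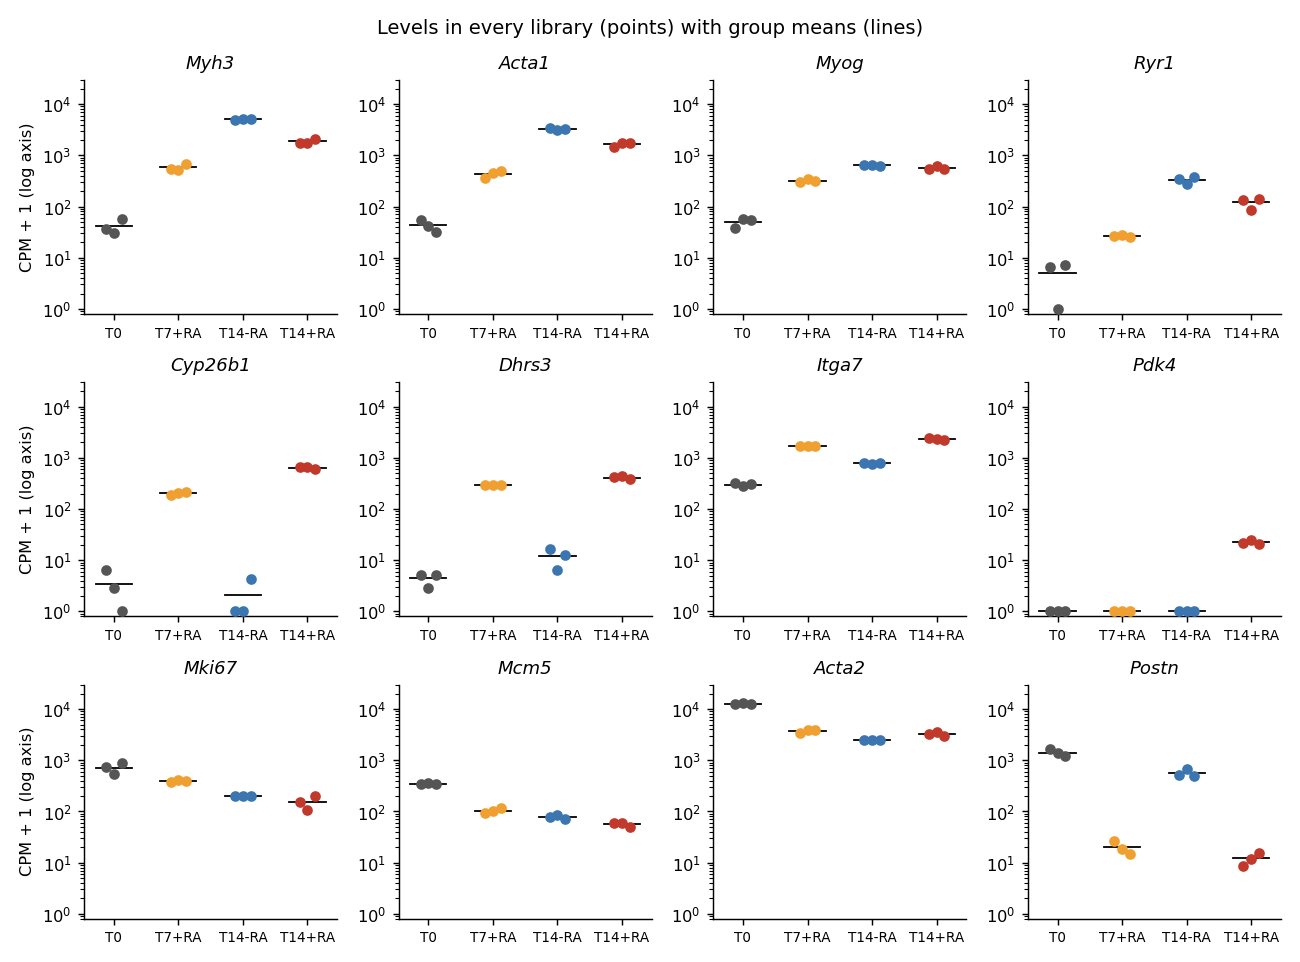
Level of 12 genes in every library of T0, T7+RA, T14-RA and T14+RA, in CPM plus 1 on a log axis, 1 point per library. Myh3, Acta1 and Ryr1 lie highest in T14-RA, Cyp26b1, Dhrs3 and Itga7 lie highest in T14+RA, and Pdk4 has counts in T14+RA only among the libraries shown.

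Excitation-contraction coupling genes, which link the membrane signal to calcium release, rose for 12 of 20 and fell for 2 (median 1.49). The calcium release channel of skeletal muscle (Ryr1) stood at 5.52, 0 and 6.29 CPM at T0 and 134, 86.4 and 138 CPM in T14+RA (4.84 ± 0.41, adjusted p = 4.37e-12). Its voltage-sensing partners Cacna1s and Cacnb1 rose by 2.54 ± 0.46 and 2.80 ± 0.29. The calcium pump Atp2a2, which is shared by heart and slow muscle, rose from 881, 759.8 and 876 to 1625, 1548 and 1813 CPM, and its inhibitors Sln and Pln rose from 0 or near 0 counts, Sln at least 6.24-fold higher and Pln 30.4-fold higher, with a 95% counting interval of 5.15 to 1232. DESeq2 did not call Pln. The junctional protein Jph2 was among those that fell (-0.88 ± 0.19, adjusted p = 0.000102), a call lost in 5 of 27 alternative fits. Against T14-RA, 8 genes were lower with RA and 0 higher, and limma-trend called 5. Casq1, the calsequestrin of fast muscle, was 165, 168 and 164 CPM in T14-RA and 32.8, 26.7 and 29.0 CPM in T14+RA (-2.46 ± 0.20, adjusted p = 6.97e-16), a call that was lost in the additive model. At T0 Casq1 was 20.7, 11.3 and 18.9 CPM, below every T14+RA library, but the change from T0 did not pass the test (adjusted p = 0.0394). The calcium channel subunit Cacng1 (49.2, 46.0 and 44.0 CPM in T14-RA) was 1.93, 1.57 and 3.63 CPM in T14+RA (-4.27 ± 0.46, adjusted p = 3.49e-11).

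Among acetylcholine receptor and synapse genes, 3 of 9 rose and 0 fell. The receptor subunit Chrnd rose from 4.14, 0 and 2.10 to 139.9, 145 and 152 CPM (5.87 ± 0.36, adjusted p = 2.42e-22), and Chrna1 from 0, 3.75 and 0 to 15.4, 25.1 and 38.1 CPM, with 151, 182 and 146 CPM in T14-RA. The third, Lrp4, is the agrin receptor of the synapse (1.13 ± 0.16, adjusted p = 3.17e-08). Of 9 skeletal myogenic factors, 3 rose and 1 fell. Myogenin (Myog), which drives terminal differentiation, stood at 37.2, 56.3 and 52.4 CPM at T0, 540.2, 621 and 547 CPM in T14+RA and 639, 645 and 632 CPM in T14-RA (3.58 ± 0.15, adjusted p = 1.09e-30 from T0). The T14+RA and T14-RA ranges of Myog did not overlap, but their difference did not pass the test (-0.17 ± 0.10, adjusted p = 0.367). Six4 rose by 1.08 ± 0.25, a call lost in 5 of 27 alternative fits, among them those without T0 replicate 2 or T14+RA replicate 1. Myod1, which specifies myoblasts, was lower (-0.85 ± 0.19, adjusted p = 0.000279), a call lost in 11 of 27 alternative fits. Mef2a and Mef2c were lower than in T14-RA (-1.15 ± 0.16, adjusted p = 1.19e-07 and -1.01 ± 0.18, adjusted p = 2.35e-05), and the call of Mef2c was lost in 3 of 27 alternative fits.

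Of 8 fusion genes, 4 rose and 2 fell. The fusion peptide gene Mymx was 0 in all 3 libraries at T0 and 13.5, 12.6 and 5.44 CPM in T14+RA, at least 6.50-fold higher, against 46.8, 54.9 and 33.9 CPM in T14-RA. Its partner Mymk was at 17.9, 22.5 and 39.8 CPM at T0, 19.3, 31.4 and 29.0 CPM in T14+RA and 129, 112 and 130.4 CPM in T14-RA. Mymk ranges of T0 and T14+RA overlapped, and T14-RA was higher than both (-2.28 ± 0.22, adjusted p = 5.05e-13 for T14+RA against T14-RA). The muscle cadherin Cdh15, an adhesion molecule of myoblasts, fell from 636, 619 and 658 to 264, 255 and 272 CPM (-1.27 ± 0.11, adjusted p = 1.28e-15). The creatine and oxygen-handling list had 4 of 6 raised and 0 lowered. Muscle creatine kinase (Ckm) rose from 1.38, 0 and 6.29 to 58.8, 73.9 and 79.8 CPM and the creatine transporter Slc6a8 from 69.0, 75.0 and 92.2 to 252, 222 and 281 CPM. The mitochondrial creatine kinase Ckmt2, absent at T0, was 26.0, 17.3 and 38.1 CPM in T14+RA and 123, 149 and 122 CPM in T14-RA. Of 4 measured cardiac transcription factors, 0 rose and 1 fell: the serum response factor partner Myocd went from 139, 63.8 and 94.3 to 26.0, 17.3 and 23.6 CPM (-2.15 ± 0.25, adjusted p = 6.74e-11).

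Retinoid genes included Cyp26b1, the gene with the largest fitted rise against T14-RA. Of 16 measured genes of retinoid metabolism, receptors and targets, 7 rose from T0 and 1 fell, and 5 were higher and 0 lower than in T14-RA. Cyp26b1 (ENSRNOG00000015076, band 4q34), the hydroxylase that clears retinoic acid, stood at 5.52, 1.88 and 0 CPM at T0, 187, 203 and 214 CPM in T7+RA and 648, 655 and 596 CPM in T14+RA (7.70 ± 0.26, adjusted p = 2.57e-35 from T0). In T14-RA it was 0, 0 and 3.39 CPM, and T14+RA was 634-fold higher, with a 95% counting interval of 175 to 5236. Every RA library was above every library without RA. The window before the start of Cyp26b1 in RefSeq (GRCr8, chr4:118616177-118616426 on the minus strand, 250 bases) is shown because the gene had the largest rise of the list, and it holds none of the 5 motifs searched.

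Cyp26b1: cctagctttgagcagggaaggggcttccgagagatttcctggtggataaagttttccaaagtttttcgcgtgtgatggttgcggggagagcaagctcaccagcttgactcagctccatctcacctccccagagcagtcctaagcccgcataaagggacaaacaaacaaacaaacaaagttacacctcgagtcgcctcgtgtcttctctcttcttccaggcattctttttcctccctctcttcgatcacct

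The motifs, searched on both strands, were CAGCTG (an E-box bound by myogenic factors), CCAAT (the NF-Y box), TTTGAA (the core of the cell cycle homology region), TTCCCG (part of the E2F consensus) and a direct repeat of the retinoic acid receptor half-site (AGGTCA 2 times in the same direction with a spacer of 5 bases, DR5). DR5 was found in 3 of 27457 windows of the table (0.0109%) and in none of the 8608 windows matched to a measured gene, which says only that these letters are not in the windows.

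Dhrs3, which reduces retinaldehyde, stood at 4.14, 1.88 and 4.19 CPM at T0 and 422, 432 and 377 CPM in T14+RA (6.82 ± 0.25, adjusted p = 4.16e-33), with 15.6, 5.31 and 11.9 CPM in T14-RA. The crosslinking enzyme Tgm2, a long known RA target, rose from 2.76, 5.63 and 0 to 75.2, 67.6 and 58.0 CPM (4.48 ± 0.46, adjusted p = 3.17e-12) and had 2.40, 8.86 and 3.39 CPM in T14-RA. Pdk4, the kinase that restrains pyruvate oxidation, had no count in any library of T0, T7+RA or T14-RA and was 20.3, 23.6 and 19.9 CPM in T14+RA, at least 12.2-fold higher than at T0. Rdh5 and Aox1, enzymes of retinoid oxidation and reduction, also rose, Rdh5 20.3-fold higher, with a 95% counting interval of 6.69 to 100.5 and Aox1 by 3.22 ± 0.46, and their differences from T14-RA did not pass the test (0.83 ± 0.34, adjusted p = 0.123 and -0.69 ± 0.25, adjusted p = 0.0684). Rara, the receptor gene that fell, went from 77.3, 122 and 96.4 to 52.1, 37.7 and 45.3 CPM (-1.08 ± 0.21, adjusted p = 1.66e-05), and its T14-RA values of 55.3, 65.5 and 61.0 CPM differed from those with RA by an amount that did not pass the test (-0.38 ± 0.22, adjusted p = 0.319). Of 18 Hox genes and cofactors, 0 rose and 1 fell (5.56%, against 19.7% of all genes).

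DNA replication and mitosis genes fell together, with none of them called between T14+RA and T14-RA. Of 47 DNA replication genes, 0 rose and 36 fell (median -1.60), and of 41 mitosis genes 0 rose and 36 fell (median -1.72). Against T14-RA, edgeR, DESeq2, limma-voom and limma-trend called 0 genes of either list, and 10 of 47 replication genes and 13 of 41 mitosis genes had an unadjusted p below 0.05 in edgeR's test, against 21.6% of all genes. The list medians against T14-RA were -0.34 for replication and -0.36 for mitosis, against -0.00358 over all genes. Relative to the T0 mean, the median of the mitosis list was -1.57 to -1.67 in the T14+RA libraries and -1.28 to -1.36 in the T14-RA libraries, and that of the replication list -1.44 to -1.71 and -1.19 to -1.38, so the day 14 groups did not overlap in either. The helicase subunit Mcm5 stood at 337, 355 and 342 CPM at T0, 59.8, 58.1 and 48.9 CPM in T14+RA and 75.7, 83.2 and 69.4 CPM in T14-RA (-2.60 ± 0.15, adjusted p = 5.2e-24 from T0). The proliferation marker Mki67 stood at 746, 537 and 869.9 CPM at T0, 151, 105 and 198 CPM in T14+RA and 203, 198 and 198 CPM in T14-RA (-2.25 ± 0.17, adjusted p = 1.4e-10 from T0). The T0 ranges of both genes lay above those of the day 14 groups. The licensing factors Cdc6 and Orc1 fell, with log2 changes of -3.14 ± 0.32 and -3.19 ± 0.46. The ribonucleotide reductase subunit Rrm2 changed by -2.26 ± 0.19, and the mitotic kinases Plk1 and Cdk1 by -2.42 ± 0.19 and -1.59 ± 0.18.

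Promoter windows are shown for the gene of each list with the largest fall among those with a window in the table, with motif matches in capitals. The mitosis gene Anln, the scaffold protein anillin of the cleavage furrow, fell from 247, 257 and 298 to 39.5, 26.7 and 43.5 CPM (-2.85 ± 0.17, adjusted p = 1.34e-22). Its window lies at chr8:29197514-29197763 on the minus strand. For DNA replication, Mcm10, a replication initiation factor, fell from 60.7, 65.7 and 73.4 to 8.68, 11.0 and 7.25 CPM (-2.85 ± 0.32, adjusted p = 2.43e-11), with its window at chr17:78175137-78175386 on the plus strand (both RefSeq, GRCr8).

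Anln: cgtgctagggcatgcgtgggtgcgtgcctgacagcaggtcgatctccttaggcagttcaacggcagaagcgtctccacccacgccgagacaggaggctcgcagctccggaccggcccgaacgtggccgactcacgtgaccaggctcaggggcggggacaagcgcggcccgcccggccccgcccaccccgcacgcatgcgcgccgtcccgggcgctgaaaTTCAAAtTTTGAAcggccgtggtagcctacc

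Mcm10: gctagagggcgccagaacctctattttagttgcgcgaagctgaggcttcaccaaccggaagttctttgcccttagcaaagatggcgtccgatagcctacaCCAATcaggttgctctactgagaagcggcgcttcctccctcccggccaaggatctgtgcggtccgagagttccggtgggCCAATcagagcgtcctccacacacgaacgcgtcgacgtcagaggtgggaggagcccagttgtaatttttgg

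The Anln window holds TTTGAA in both directions next to each other, and the Mcm10 window holds CCAAT at 2 places. TTTGAA was found in the windows of 15 of 35 mitosis genes (42.9%), against 10.9% of 8608 measured genes and 10.0% of 40 DNA replication genes. CCAAT was found in 26 of 35 mitosis genes (74.3%) and 21 of 40 replication genes (52.5%), against 37.2% of measured genes. TTCCCG was found in 12 of 40 replication genes (30.0%) and 5 of 35 mitosis genes, against 18.9% of measured genes. The E-box CAGCTG was found in 3 of 9 thick filament genes (33.3%), 16.1% of all raised genes and 11.6% of all lowered genes, against 12.6% of measured genes. Over all 27457 genes of the window table the shares were 17.2% for TTTGAA, 36.1% for CCAAT, 11.2% for TTCCCG and 12.9% for CAGCTG. These are counts of letters in windows of 250 bases and no test was made of them.

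The G1 list of 24 genes was mixed, with 4 raised and 5 lowered. The cell cycle inhibitors Cdkn1a and Cdkn2b rose, Cdkn1a from 179, 137 and 172 to 346, 299 and 283 CPM (0.93 ± 0.13, adjusted p = 8.26e-09) and Cdkn2b from 27.6, 30.0 and 18.9 to 92.6, 95.9 and 76.1 CPM (1.77 ± 0.23, adjusted p = 1.8e-09). The D-type cyclins Ccnd2 and Ccnd3 rose by 0.98 ± 0.15 and 0.64 ± 0.10, and Cdk2 and the repressor E2f7 fell, with log2 changes of -1.45 ± 0.22 and -3.89 ± 0.47. Leaving out T14+RA replicate 1 reduced the count of lowered genes to 2. E2f2, an activator of S phase genes, was also lower than in T14-RA (-1.75 ± 0.39, adjusted p = 0.000765), whereas DESeq2, limma-voom and limma-trend called 0 genes of this list in that comparison. Its call against T0 (-1.68 ± 0.41, adjusted p = 0.000646) was lost in 12 and that against T14-RA in 11 of 26 alternative fits.

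**Figure D3:**
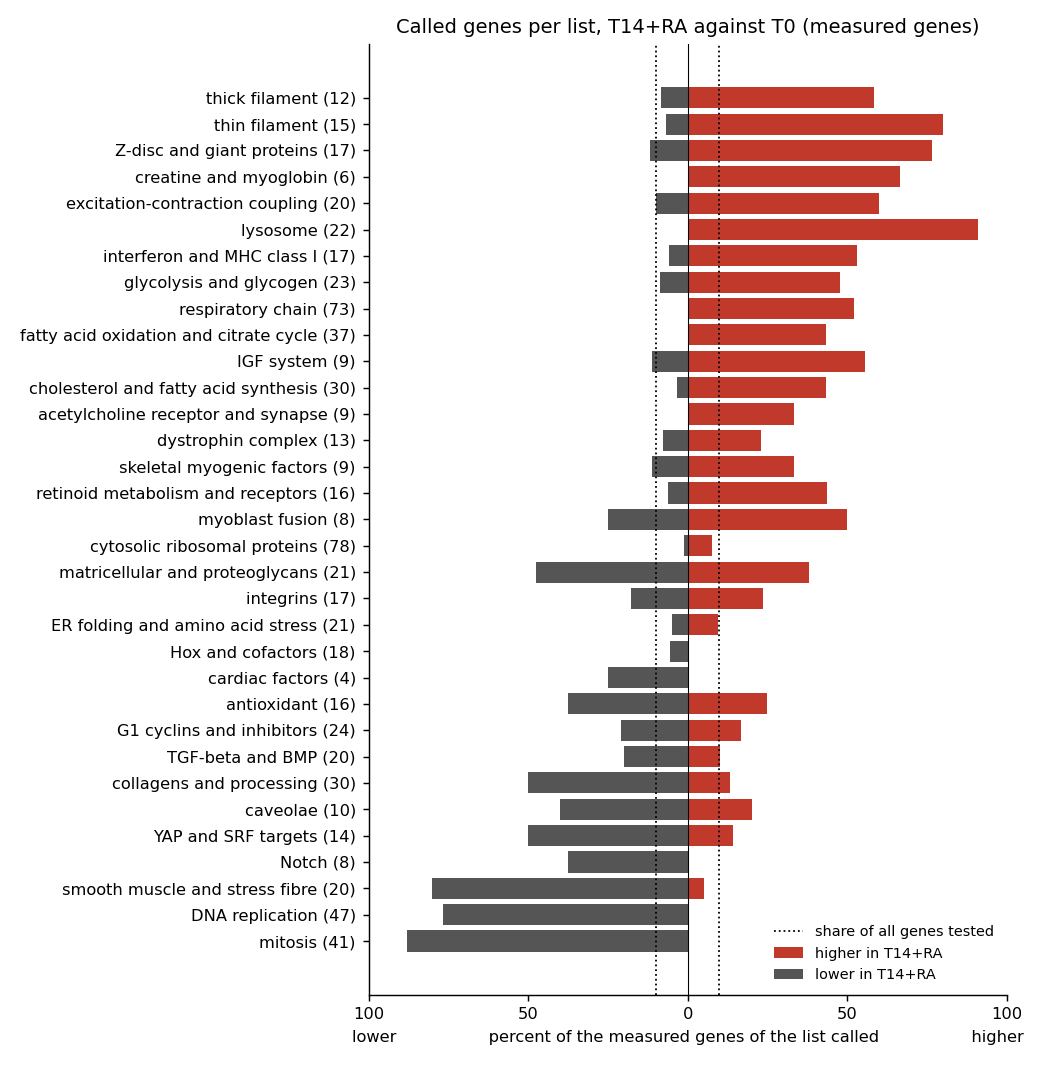
Percent of the measured genes of each list that were called higher (right) or lower (left) in T14+RA against T0, with the shares over all genes, 9.83% and 9.9%, as dotted lines. The lysosome, thin filament and Z-disc lists extend furthest to the right, and the mitosis, smooth muscle and stress fibre and DNA replication lists furthest to the left.

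Smooth muscle and stress fibre genes, which form contractile actin bundles in spread cells, fell for 16 of 20 and rose for 1 (median -1.33). Their share of counts was 3.85 to 3.94% at T0, 1.24 to 1.33% in T14+RA and 1.3 to 1.36% in T14-RA. Besides Acta2 and Flna, transgelin (Tagln) fell from 2638, 3283 and 2566 to 950.2, 1187 and 872 CPM (-1.50 ± 0.10, adjusted p = 6.03e-19), and calponin 1 (Cnn1) from 368, 525 and 308 to 89.7, 97.4 and 107 CPM (-2.05 ± 0.17, adjusted p = 1.62e-12). The gene that rose was Mylk, the myosin light chain kinase (1.52 ± 0.15, adjusted p = 7.61e-13). Against T14-RA, 3 of these genes were higher and 4 lower with RA. Myl9, the regulatory light chain of smooth muscle, was 941, 1086 and 888 CPM in T14+RA and 589.8, 551 and 609.6 CPM in T14-RA (0.74 ± 0.11, adjusted p = 1.53e-07), whereas smoothelin (Smtn) was 47.3, 45.6 and 67.1 CPM and 137, 147 and 124 CPM (-1.38 ± 0.18, adjusted p = 1.29e-08).

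Of 14 genes of the YAP and SRF pathways, which respond to cell tension, 7 fell and 2 rose. The YAP targets Ccn1 and Ccn2 fell from 1033, 991 and 1019 to 216, 198 and 178 CPM (-2.35 ± 0.11, adjusted p = 6.39e-27) and from 1764, 1764 and 1715 to 659, 713 and 604 CPM (-1.41 ± 0.10, adjusted p = 5.76e-20), while Ankrd1, a target of the same factors and a protein of the muscle I-band, rose from 1873, 2030.0 and 1687 to 3622, 3648 and 3372 CPM (0.93 ± 0.09, adjusted p = 2.34e-14). The other raised gene was Amotl1, whose call was lost in 5 of 27 alternative fits, among them those without T0 replicate 1 or T14+RA replicate 1 or 3. Caveolae genes, which shape membrane pits, had 2 raised and 4 lowered of 10, and 6 lower and 0 higher than in T14-RA. Cav1 fell from 329.7, 336 and 259.9 to 136, 146 and 156 CPM (-1.10 ± 0.13, adjusted p = 5.96e-11), whereas T14-RA remained at 314, 308 and 296 CPM (-1.08 ± 0.13, adjusted p = 2.7e-10 for T14+RA against T14-RA). The muscle forms Cavin4 and Pacsin3 rose by 1.82 ± 0.17 and 1.28 ± 0.18. In the dystrophin complex, which ties the cytoskeleton to the matrix, 3 of 13 genes rose, among them Sntb1 (2.23 ± 0.28), and 1 fell, the dystrophin relative Utrn (-1.01 ± 0.14).

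Among 30 collagens and collagen-processing genes, 4 rose and 15 fell. Collagen III (Col3a1) rose from 2978, 2799 and 3308 to 5986, 5819.5 and 4828 CPM (0.87 ± 0.08, adjusted p = 1.58e-13), and the basement membrane collagens Col4a1 and Col4a2 fell, with log2 changes of -1.16 ± 0.10 and -1.01 ± 0.10. The collagen VI chains Col6a1 and Col6a2 stood at 177, 201 and 216 and 156, 178 and 191 CPM at T0. In T14+RA they were 8.68, 7.86 and 9.06 CPM and 14.5, 29.9 and 29.0 CPM (-4.49 ± 0.24, adjusted p = 1.57e-24 and -2.92 ± 0.22, adjusted p = 1.15e-17), while in T14-RA they were 172, 149 and 186 CPM and 180.2, 191 and 168 CPM. T14-RA thus overlapped with T0 for both chains, and T14+RA was below both groups (-4.28 ± 0.25, adjusted p = 1.35e-22 and -2.97 ± 0.22, adjusted p = 7.53e-18 against T14-RA). Col11a1, a chain of cartilage collagen, moved the other way, with 128, 93.8 and 128 CPM at T0, 590.4, 413 and 468 CPM in T14+RA and 107, 128 and 144 CPM in T14-RA (2.08 ± 0.14, adjusted p = 1.32e-20 from T0). The lysyl oxidases Lox and Loxl1 fell (-0.79 ± 0.10 and -0.62 ± 0.11), whereas Loxl2 rose (0.91 ± 0.12). Against T14-RA, 5 genes of the list were higher and 4 lower.

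Matricellular proteins and proteoglycans rose for 8 and fell for 10 of 21 genes, and 7 were higher and 10 lower than in T14-RA. Matrix Gla protein (Mgp), an inhibitor of calcification, stood at 0, 1.88 and 0 CPM at T0, 2.40, 8.86 and 0 CPM in T14-RA and 65.6, 102 and 56.2 CPM in T14+RA, 128-fold higher, with a 95% counting interval of 22.6 to 5082 for T14+RA against T0. Thbs2, a relative of Thbs1, rose from 1.38, 9.38 and 8.38 to 83.0, 97.4 and 107 CPM (3.98 ± 0.34, adjusted p = 2.16e-15), while Thbs1 fell from 8477, 7330.1 and 9173 to 1302, 1116 and 1418 CPM. Tenascin C (Tnc) and the TGF-beta binding proteins Ltbp1 and Ltbp3 rose by 1.99 ± 0.25, 1.01 ± 0.10 and 1.34 ± 0.12, and Ltbp2, fibrillin 1 (Fbn1) and biglycan (Bgn) fell, with log2 changes of -1.65 ± 0.11, -1.60 ± 0.12 and -0.59 ± 0.08. Of 17 integrin genes, which encode matrix receptors, 4 rose and 3 fell (5 without T0 replicate 2). Itga7, the laminin receptor subunit of muscle, stood at 315, 278 and 306 CPM at T0, 804, 744 and 799 CPM in T14-RA and 2399, 2340.1 and 2272 CPM in T14+RA (2.96 ± 0.10, adjusted p = 7.5e-36 from T0). Itgax and Itga8 rose by 5.49 ± 0.33 and 2.30 ± 0.25, and the fibronectin receptor subunits Itga4 and Itga5 fell, with log2 changes of -2.83 ± 0.33 and -1.34 ± 0.11. Against T14-RA, 7 integrins were higher with RA and 0 lower, among them the common partner Itgb1 (0.68 ± 0.08, adjusted p = 3.19e-09), which did not pass the test against T0 (0.04 ± 0.08, adjusted p = 0.758).

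Lysosome genes rose for 20 of 22 and fell for 0 (median 1.12). Cathepsin D (Ctsd), a protease of the lysosome, stood at 893, 904 and 757 CPM at T0, 2226, 2198 and 2215 CPM in T14-RA and 3099, 3297 and 2897 CPM in T14+RA (1.86 ± 0.09, adjusted p = 5.11e-27 from T0). The membrane protein Lamp1 rose from 763, 854 and 763 to 2052, 2059 and 1793 CPM (1.31 ± 0.09, adjusted p = 2.35e-19). Legumain (Lgmn), the glucosidase Gaa and the receptor Scarb2 rose by 1.60 ± 0.14, 1.03 ± 0.11 and 1.32 ± 0.14. Against T14-RA, 7 genes were higher with RA and 0 lower (4 called by limma-trend), among them Ctsd (0.49 ± 0.09, adjusted p = 1.38e-05) and Scarb2 (0.84 ± 0.13, adjusted p = 7.58e-07). The call of Ctsd against T14-RA was lost in the additive model.

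Mitochondrial genes rose widely. Of 73 genes of the respiratory chain, 38 rose and 0 fell (median 0.84). These genes are short, with a median length of 705 bases, and with the trend along gene length removed 32 rose with a median of 0.592. The muscle subunits of cytochrome oxidase, Cox6a2 and Cox8b, stood at 0, 0 and 6.29 and 2.76, 0 and 0 CPM at T0. In T14+RA they were 100.3, 152 and 149 and 37.6, 50.3 and 41.7 CPM, and in T14-RA 79.3, 86.8 and 86.4 and 107, 97.4 and 102 CPM. Cox8b was lower with RA than without (-1.26 ± 0.21, adjusted p = 5.37e-06), a call that limma-trend did not make. The ATP synthase subunit Atp5f1b rose from 1759, 1662 and 1467 to 2662, 2984 and 2656 CPM (0.76 ± 0.09, adjusted p = 2.74e-11). Against T14-RA, 2 respiratory chain genes were higher and 1 lower (4.11% of the list, against 4.81% of all genes), and limma-trend called 1 in all. Of 37 genes of fatty acid oxidation and the citrate cycle, 16 rose and 0 fell (median 0.76). Hadhb, a subunit of the trifunctional protein of beta-oxidation, rose from 225, 203 and 187 to 821, 889.5 and 939 CPM (2.09 ± 0.11, adjusted p = 1.52e-24).

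Glycolysis and glycogen genes had 11 raised and 2 lowered of 23 (1 lowered without T0 replicate 2). The hexokinases moved in opposite directions. Hk2, the form of muscle, rose from 80.0, 71.3 and 67.1 to 416, 391 and 464 CPM (2.52 ± 0.15, adjusted p = 2.36e-22), and Hk1 fell from 214, 246 and 189 to 128, 101 and 94.3 CPM (-0.97 ± 0.15, adjusted p = 1.16e-07). Lactate dehydrogenase B (Ldhb) stood at 141, 201 and 157 CPM at T0, 223, 218 and 230.3 CPM in T14-RA and 1026, 1146 and 963 CPM in T14+RA (2.66 ± 0.12, adjusted p = 3.2e-29 from T0, 2.22 ± 0.11, adjusted p = 7.87e-26 against T14-RA). The muscle glucose transporter Slc2a4 rose from 31.7, 18.8 and 16.8 to 61.7, 70.7 and 63.5 CPM (1.46 ± 0.27, adjusted p = 8.52e-06). Among 30 genes of cholesterol and fatty acid synthesis, 13 rose and 1 fell, and 2 were higher and 5 lower than in T14-RA (3 called by limma-trend). The desaturases Scd and Scd2 rose by 4.24 ± 0.14 and 2.83 ± 0.09, and Scd was also higher than in T14-RA (1.03 ± 0.10, adjusted p = 1.79e-12), a call lost in the additive model. Cyp51, an enzyme of sterol synthesis, rose from 312, 295 and 293 to 426, 451 and 397 CPM (not called with only the 2 groups compared) but was lower than the 587, 654 and 615 CPM of T14-RA (-0.54 ± 0.10, adjusted p = 3.32e-05). The gene that fell, Fasn (-0.45 ± 0.11, adjusted p = 0.000458), lost its call in 10 of 27 alternative fits.

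The IGF system had 5 of 9 genes raised and 1 lowered. Igf2, a growth factor of myogenic cells, stood at 731, 639.8 and 811 CPM at T0, 1236, 1092 and 1100.4 CPM in T14+RA and 2928, 2954 and 2985 CPM in T14-RA (0.66 ± 0.10, adjusted p = 7.41e-08 from T0, -1.37 ± 0.09, adjusted p = 2.01e-19 against T14-RA). Igfbp5 was higher with RA, with 1392, 1199 and 1461 CPM in T14-RA (1.20 ± 0.12, adjusted p = 2.41e-09), and Igfbp4 was lower than in T14-RA (-0.94 ± 0.11, adjusted p = 1.79e-10). The calls of Igf2 and Igfbp5 against T14-RA were lost in the additive model, the change of Igf2 from T0 was too, and limma-trend did not call Igfbp5. The receptor gene Igf1r fell (-1.40 ± 0.17, adjusted p = 3.14e-10). Of 20 TGF-beta and BMP genes, 2 rose (1 without T0 replicate 2) and 4 fell. The inhibitory gene Smad7 fell from 86.9, 78.8 and 81.8 to 10.6, 12.6 and 5.44 CPM (-3.05 ± 0.30, adjusted p = 1.66e-13), and the ligand Tgfb3 from 952, 849.9 and 893 to 555, 552 and 524 CPM (-0.72 ± 0.10, adjusted p = 5.23e-09), with T14-RA lower still at 245, 239 and 229 CPM. Notch genes fell for 3 of 8 and rose for 0. The receptor Notch3 was 53.8, 50.7 and 98.5 CPM at T0, 84.1, 69.1 and 59.3 CPM in T14-RA and 15.4, 11.0 and 9.06 CPM in T14+RA (-2.50 ± 0.28, adjusted p = 1.57e-10 against T14-RA), and the ligand Jag1 fell from 189, 218 and 249 to 31.8, 37.7 and 27.2 CPM (-2.74 ± 0.20, adjusted p = 6.88e-19).

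Of 17 interferon and MHC class I genes, 9 rose (4 without T0 replicate 1) and 1 fell. B2m, the light chain of MHC class I, rose from 218, 188 and 169.8 to 1080.4, 1165 and 919 CPM (2.45 ± 0.11, adjusted p = 4.14e-28). In T14-RA it was 830.0, 770.4 and 729.8 CPM, lower than with RA by the test (0.44 ± 0.10, adjusted p = 0.000596), a call that was lost in 9 of 27 alternative fits, limma-trend among them. The ER folding and amino acid stress list had 2 raised and 1 lowered of 21, with a median whose sign changed with the scaling, from -0.0783 to 0.0223. Its raised genes were the chaperone Canx (0.76 ± 0.10) and the stress factor Ddit3 (1.92 ± 0.23). Antioxidant genes had 4 raised and 6 lowered of 16. The quinone reductase Nqo1 fell from 381, 439 and 344 to 112, 81.7 and 59.8 CPM (-2.13 ± 0.15, adjusted p = 1.21e-19), and the mitochondrial enzymes Sod2 and Prdx3 rose by 1.51 ± 0.17 and 1.66 ± 0.16. Of 78 cytosolic ribosomal protein genes, 6 rose and 1 fell (8.97%, against 19.7% of all genes), but 27 rose and 0 fell without T0 replicate 2. With the trend along gene length removed, 3 rose and 8 fell, and the list median went from 0.221 to -0.0139. These genes have a median length of 633 bases and took 1.78, 2.62 and 1.55% of the counts at T0 and 2.34, 2.73 and 2.15% in T14+RA.

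With RA and without RA, 15 genes were called in opposite directions from T0. Of all genes, 19.7% were called in T14+RA and 15.7% in T14-RA against T0, the latter with 7.83% raised and 7.84% lowered. Both comparisons share the T0 libraries, so their values are given side by side. The values of the test of T14+RA against T14-RA are given as a description, since the choice of these genes fixes that the day 14 groups differ. The water channel Aqp1 stood at 69.0, 33.8 and 50.3 CPM at T0, 426, 407 and 371 CPM in T14-RA and 6.75, 11.0 and 12.7 CPM in T14+RA (-5.38 ± 0.21, adjusted p = 3e-31 between the day 14 groups). The scaffold protein Akap12 stood at 341, 358 and 388 CPM at T0, 243, 161 and 193 CPM in T14-RA and 1146, 981 and 1075 CPM in T14+RA (2.40 ± 0.11, adjusted p = 3.95e-27). Osteopontin (Spp1), a secreted matrix protein, stood at 102, 161 and 129.96 CPM at T0, 48.0, 42.5 and 44.0 CPM in T14-RA and 246, 255 and 252 CPM in T14+RA (2.47 ± 0.17, adjusted p = 2.82e-19). In each of these genes the 3 groups did not overlap, and T0 lay between the day 14 groups. Gdpd5, Adamts8, Loxl2, Fam20c and Rai14 rose with RA and fell without it, whereas Olfml2b, Hspb7, Dclk1, Mrvi1, Svep1, Adamts1 and AABR07068316.1 fell with RA and rose without it. Of the 15 genes, 12 kept both calls from T0 under each of 23 alternatives (scalings, tests, block, thinning, length and each library left out), and all 15 kept opposite signs in them. Fam20c lost its call in T14-RA (-0.49 ± 0.12, adjusted p = 0.000962) in 19 of the 23. Mrvi1 lost its call in T14-RA in 5 and in T14+RA without T0 replicate 1, and Dclk1 its call in T14+RA in 3, among them without T0 replicate 2 and without T14+RA replicate 1. In the additive model, which was not among the 23, the call of Spp1 in T14+RA was lost, and Dclk1 lost its call in T14+RA in 5 of the 26 alternative fits made for single genes.

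**Figure D4:**
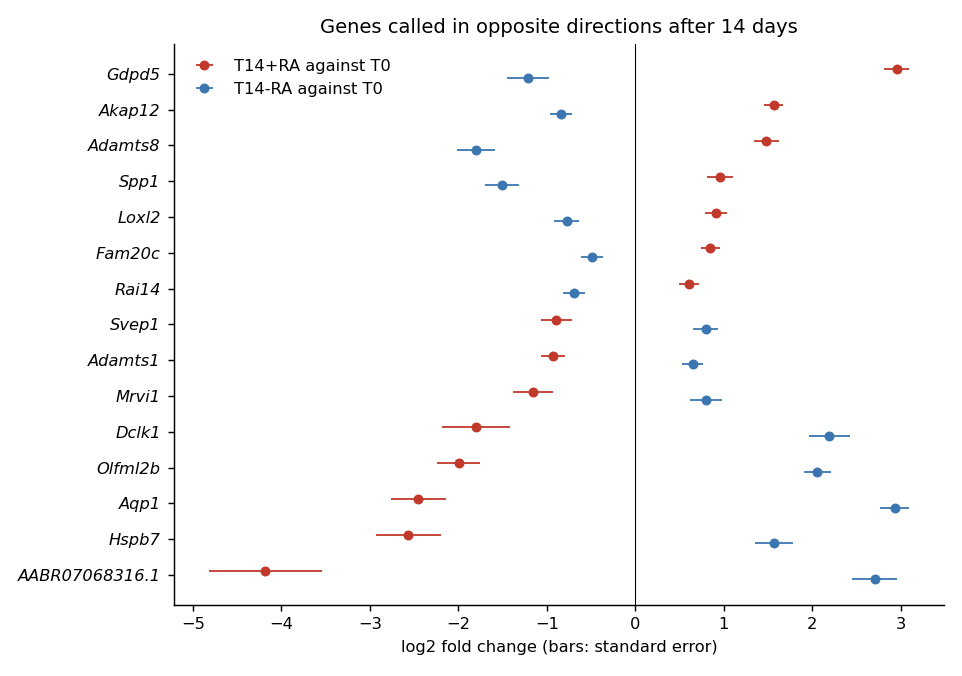
Log2 fold change ± SE from T0 of the 15 genes called in opposite directions at day 14 with RA (T14+RA) and without RA (T14-RA). Aqp1 was at -2.45 ± 0.31 with RA and 2.93 ± 0.16 without it, and Gdpd5 at 2.95 ± 0.14 and -1.22 ± 0.24.

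The largest differences between T14+RA and T14-RA also included genes with little or no expression in T0. Kng1 had no count in T14-RA and was at least 30.7-fold higher with RA, Foxa1, a pioneer transcription factor, was at least 8.04-fold higher at 10.6, 14.14 and 12.7 CPM, and Mcpt1, a mast cell protease of the same family as Mcpt8l2, was at least 19.4-fold higher at 27.0, 31.4 and 30.8 CPM. Mill1 was 1.20, 1.77 and 0 CPM in T14-RA and 72.3, 62.9 and 76.1 CPM in T14+RA, 70.1-fold higher, with a 95% counting interval of 19.1 to 584. Genes without a count in T14+RA included the transglutaminase gene F13a1 (28.8, 26.6 and 20.3 CPM in T14-RA, at least 19.0-fold lower with RA), the membrane fusion gene Otof (at least 10.1-fold lower), the adhesion gene Cntn2 (at least 10.1-fold lower) and Ms4a6bl (at least 7.46-fold lower). The muscle protein gene Igfn1 was 39.6, 35.4 and 47.4 CPM in T14-RA and 0, 0 and 1.81 CPM in T14+RA, 90.7-fold lower, with a 95% counting interval of 15.8 to 3624. None of F13a1, Otof, Cntn2, Ms4a6bl and Igfn1 passed the test against T0, where each was at 0 to 4.14 CPM. The calls of Foxa1, Otof, Cntn2 and Ms4a6bl, with few counts each, were lost in 4, 2, 3 and 7 of 25 alternative fits.

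From day 7 to day 14 with RA, 540 genes (4.67%) differed, 278 higher (2.4%) and 262 lower (2.26%) in T14+RA. Sarcomere genes were again among the raised, with 7 thick filament, 10 thin filament and 11 Z-disc genes higher and 0 lower in each of these lists. Myh3 stood at 546, 521 and 670.2 CPM in T7+RA and at 1747, 1757 and 2119 CPM in T14+RA (1.70 ± 0.10, adjusted p = 2.74e-21), and Cyp26b1 at 187, 203 and 214 and 648, 655 and 596 CPM (1.66 ± 0.12, adjusted p = 2.11e-17). Mitosis genes were lower at day 14 for 23 of 41 and DNA replication genes for 7 of 47. Of the respiratory chain genes 15 were higher, of the lysosome genes 8, and of the fatty acid oxidation and citrate cycle genes 8, with 0 lower in each. Tgm2 stood at 74.1, 73.8 and 34.3 CPM in T7+RA and Ccnd2 at 332, 333 and 324 CPM, and neither difference from T14+RA passed the test (0.13 ± 0.24, adjusted p = 0.819 and -0.10 ± 0.13, adjusted p = 0.746).

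**Figure D5:**
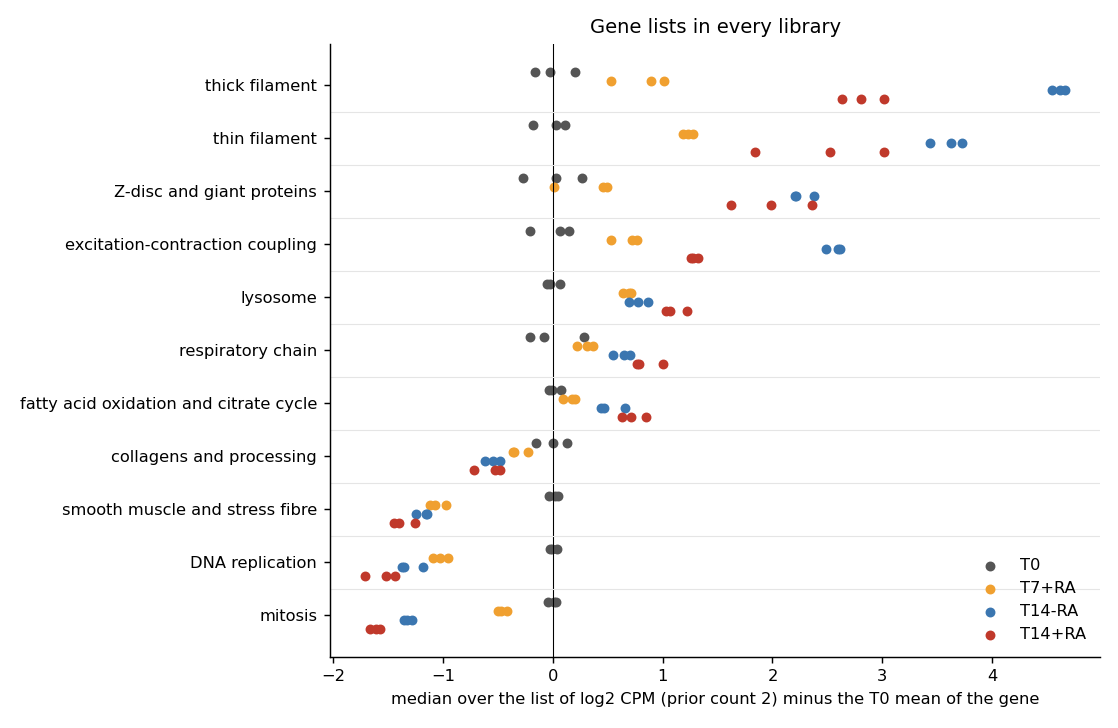
Median over each of 11 gene lists of the log2 level relative to the T0 mean, 1 point per library of T0, T7+RA, T14-RA and T14+RA. The thick filament list lies highest in T14-RA and between the other groups in T14+RA, and the mitosis and DNA replication lists lie below 0 in all day 14 libraries.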

How the data were processed

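Poly(A) RNA of 15 H9c2 libraries was sequenced by the authors as paired reads of a stranded kit. The deposited values were raw read counts per gene, made by the authors with HISAT2 and featureCounts on Rnor_6.0 (versions and strand setting not given in the sources used here), and the deposited table holds only genes with more than 20 counts over all libraries. Of its 11574 rows 11126 were protein-coding and 1 had no symbol. Groups came from the labels. In R 4.3.3, edgeR 4.0.16 fitted 1 mean per group with TMM and a robust quasi-likelihood test, called at a Benjamini-Hochberg adjusted p below 0.001. Alternatives used DESeq2 1.42.0, limma 3.58.1, other scalings, filters, models and thresholds, thinned counts and 1 library left out. With no count in a group, folds were set against a floor of 3 counts over the group, and intervals and floors cover counting error only. Scripts were tested on simulated data. Named genes were the 15 called genes with the largest log2 rises and 15 with the largest falls in T14+RA against T0, 8 and 8 by change in CPM, 8 and 8 against T14-RA (groups not overlapping except for the CPM rule), and members of 33 lists and of the marker lists, plus the genes called in opposite directions. The comparison, members and lists were chosen with earlier results of these data known. Upstream windows of 250 bases came from RefSeq (GRCr8), with 8608 of 11547 symbols matched, and coordinates of the files' build were not used. Some genes that the rule names are not reported here.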

Additional observations from a re-analysis of the deposited data

Results flagged for a closer look

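The change from T0 to day 14 differed with and without RA for 557 genes, which is the number called in the direct test of T14+RA against T14-RA (edgeR's quasi-likelihood test, Benjamini-Hochberg adjusted p below 0.001). In 15 of them the 2 changes from T0 were both called and pointed in opposite directions, so each is listed here for a difference between groups that their choice fixes. The T14+RA minus T14-RA differences on the log2 scale were 4.17 for Gdpd5, 3.28 for Adamts8, 2.46 for Spp1, 2.40 for Akap12, 1.68 for Loxl2, 1.34 for Fam20c and 1.29 for Rai14, which were higher with RA. They were -6.88 for AABR07068316.1, -5.38 for Aqp1, -4.13 for Hspb7, -4.05 for Olfml2b, -3.99 for Dclk1, -1.96 for Mrvi1, -1.69 for Svep1 and -1.58 for Adamts1, which were lower with RA. Among the genes higher with RA, Spp1 and Fam20c encode secreted proteins of mineralised tissue or their kinase, Adamts8 a secreted protease and Loxl2 a collagen crosslinking enzyme. Gdpd5, Akap12 and Rai14 were higher too and are not described by these terms, and Adamts1, of the gene family of Adamts8, was lower with RA. No shared trait of either direction was tested.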

How the results depend on the processing

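With the threshold at an adjusted p below 0.05, T14+RA against T0 gave 4389 calls (2204 raised, 2185 lowered), T14+RA against T14-RA 1291 (627 higher, 664 lower) and T14+RA against T7+RA 1315 (655 higher, 660 lower). Tested against a change of 1 on the log2 scale, T14+RA against T0 gave 890 calls (477 raised, 413 lowered). With only genes of at least 10 counts in every library, 183 genes were higher in T14+RA against T7+RA, where fewer genes were tested. Leaving out 1 library at a time gave 1807 to 2262 calls for T14+RA against T0, 376 to 657 for T14+RA against T14-RA (192 to 323 higher, 181 to 334 lower, the latter lowest without T14-RA replicate 1) and 362 to 643 for T14+RA against T7+RA (182 to 342 higher, 180 to 301 lower, the former lowest without T7+RA replicate 2). Across the other normalizations, tests, filters, models and depths these counts stayed within 1.5 times of their reported values, for T14+RA against T0 from 1676 to 2460. With the replicate number as a replicate block, T14+RA against T0 gave 2427 calls (1213 raised, 1214 lowered), T14+RA against T14-RA 628 (313 higher, 315 lower) and T14+RA against T7+RA 626 (323 higher, 303 lower). The labels give the numbers no shared source. Deviations from the group means of same-numbered T0 and T14+RA libraries correlated at 0.0232, 0.265 and 0.117. Not every pair was thus over 0.1, and the main fit did not take the numbers as pairs. The replicate 2 libraries of T0, T7-RA, T14-RA and T14+RA all correlated with each other, however, at 0.105 to 0.265. T7+RA replicate 2 correlated with them at -0.045 to 0.0493. Whether the replicate 2 libraries share a source was not tested. Over all groups same-numbered libraries correlated at 0.054 on average and others at -0.027, and T0 replicate 1 correlated more with T14+RA replicate 3 (0.118) than with T14+RA replicate 1. Of the 179 named genes called against T0, 161 kept their call under every alternative run and 18 lost it in at least 1, and none changed direction. Of the 42 named genes called against T14-RA, 28 kept their call under every alternative run and 14 lost it in at least 1. Of the list counts against T0, 851 of 924 stayed within 1.5 times and 73 moved. The removal of the trend along gene length (2460 calls) was chosen after seeing the data, as were the list counts with 1 library left out and the alternatives for the 15 genes called in opposite directions. At about 1.45 CPM per count, genes with few counts limited what could be detected.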

Other observations

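The change from T0 to T14+RA was uneven along gene length. Among the 2894 genes with the shortest transcripts (49 to 1483 bases), the median log2 change was 0.253, with 298 raised and 130 lowered. Among the 2892 genes with the longest (3537 to 25658 bases), it was -0.142, with 275 raised and 461 lowered. Libraries of the same group also differed along length, as given at the start for T0 replicate 2 and T14+RA replicate 2. The part of these 2 libraries in the trend was not tested.

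In T0 replicate 3, 3 genes stood far above their level in the other T0 libraries, and their large fitted falls to T14+RA did not pass the test. They were found by asking for a log2 change over 3 and a mean over 20 CPM without a call, after their values were seen. AABR07063425.2, annotated as a miRNA gene, was 17.9, 5.63 and 472 CPM at T0 and 3.86, 0 and 0 CPM in T14+RA (adjusted p = 0.0332, edgeR). AABR07015081.2, annotated as protein-coding, was 0, 5.63 and 893 CPM at T0 and 9.65, 14.14 and 16.3 CPM in T14+RA (adjusted p = 0.073, edgeR). A 5S_rRNA gene was 8.28, 1.88 and 138 CPM at T0 and 1.93, 1.57 and 5.44 CPM in T14+RA (adjusted p = 0.0525, edgeR). The cause was not tested.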
